A study of Homo sapiens with 8 samples.

Results

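The proteins of the small (40S) ribosomal subunit were followed through starvation for single amino acids by the density of ribosomes on their mRNAs. Transcript identifiers were mapped to gene symbols, and 28 genes were taken by name, RPSA, FAU and 26 genes with the prefix RPS, of 12235 genes listed in at least 1 library. The choice was by gene name and set no threshold on a measured value. All 28 were listed in at least 1 library and 24 were listed in all 8. HEK293T cells, a human embryonic kidney line immortalized with SV40 Large T antigen, were kept overnight in a control medium with every amino acid (Suff) or in the same medium without arginine (Arg-), leucine (Leu-) or methionine (Met-). All 4 media were built on custom DMEM with dialyzed serum. Ribosome-protected mRNA fragments (footprints) were sequenced from cells pre-treated with cycloheximide (CHX), which freezes elongating ribosomes, and from cells that were not, giving 2 series of 4 libraries. There was 1 library for each condition and no replicate, so no difference below was tested, and every interval is a 95% counting interval that leaves out the variation between cultures and between library preparations.

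The small subunit holds the mRNA channel and the decoding centre, and its proteins are made in step with the ribosomal RNA and with those of the large subunit. The mRNAs of ribosomal proteins are known for a terminal oligopyrimidine (TOP) tract, a C at the first transcribed position followed by a run of C and T. Through this tract their translation depends on mTORC1, a kinase complex that responds to amino acids, leucine and arginine in particular. A footprint density combines the amount of an mRNA with the number of ribosomes on it. These libraries do not tell the 2 quantities apart.

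The start of the mRNA is where this class of genes has its common sequence feature, so the start windows of the members with the lowest and the highest ratios in the series without CHX are shown, together with RPS4X. Each window runs from 10 bases before to 20 bases from the annotated first base of the gene (RefSeq, GRCh38.p14), written 5′ to 3′ on the strand of the gene, and capitals mark the run of at least 6 pyrimidines that starts within 10 bases of that position.
RPS26 (chr12:56041908-56041937, plus strand): acataacctcgaTTTTCTTCCgccatccgg
RPS12 (chr6:132814559-132814588, plus strand): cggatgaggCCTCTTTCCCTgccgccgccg
RPSA (chr3:39406710-39406739, plus strand): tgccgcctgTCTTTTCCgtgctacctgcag
FAU (chr11:65122115-65122144, minus strand): tcgCTTCTTCCTCTTTCTCgactccatctt
RPS3A (chr4:151099618-151099647, plus strand): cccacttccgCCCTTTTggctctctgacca
RPS6 (chr9:19380217-19380246, minus strand): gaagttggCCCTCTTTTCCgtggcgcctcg
RPS29 (chr14:49598691-49598720, minus strand): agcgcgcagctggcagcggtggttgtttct
RPS4X (chrX:72277229-72277258, minus strand): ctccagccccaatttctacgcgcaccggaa
Of the 25 members with a window in the table, 23 (92%) held such a run, against 24.8% of the 34943 windows of all genes. The runs were 6 to 16 bases long. A C at the annotated first base followed by 4 pyrimidines was found for 19 of the 25 members and in 4.06% of all windows. The windows of RPS29 and RPS4X held no run, which says only that these letters are not at the annotated position.

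Depth differed between the libraries. With CHX, 2560280 reads lay on coding sequences in Suff, 5010210 in Arg-, 6434043 in Leu- and 538222 in Met-. Without CHX the totals were 3139745, 1610707, 1496852 and 1302523. The fewest reads of a listed transcript were 64 in every CHX library and 5 in every library without CHX, and a transcript with fewer reads did not appear. As a check of the cell line, 7 markers of the line and 7 of other cells were looked up. Of the line markers, VIM, NEFM and IGF2BP1 were listed in 8 of 8 libraries. LIN28B was listed in 7, KRT18 in 6, KRT8 in 4 and PAX2 in 2. With CHX, Suff listed 4 of the 7 line markers and Met- listed 3. Of the others, ALB, AFP, PTPRC, CD3E, HBA1 and DES were listed in 0 libraries, and COL1A1 in 5 at an RPKM of 1.59 to 20.2.

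In Suff the 40S protein mRNAs were among those with the densest footprints. RPKM (reads per kilobase of coding sequence, scaled to the reads of the library) had a median of 3200 over 28 members with CHX, against 59.3 over all listed genes, and of 3155 over 26 members without CHX, against 17.5. Of the 100 genes with the highest RPKM in Suff, 15 were members with CHX and 19 without. Each subunit holds these proteins in equal number, and the levels of their mRNAs were closer to each other without CHX. The highest level was 4.46 times the lowest there (RPS15 at 7107 and RPS20 at 1595), and 35.4 times the lowest with CHX (RPS28 at 10931 and RPSA at 308).

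**Figure D1:**
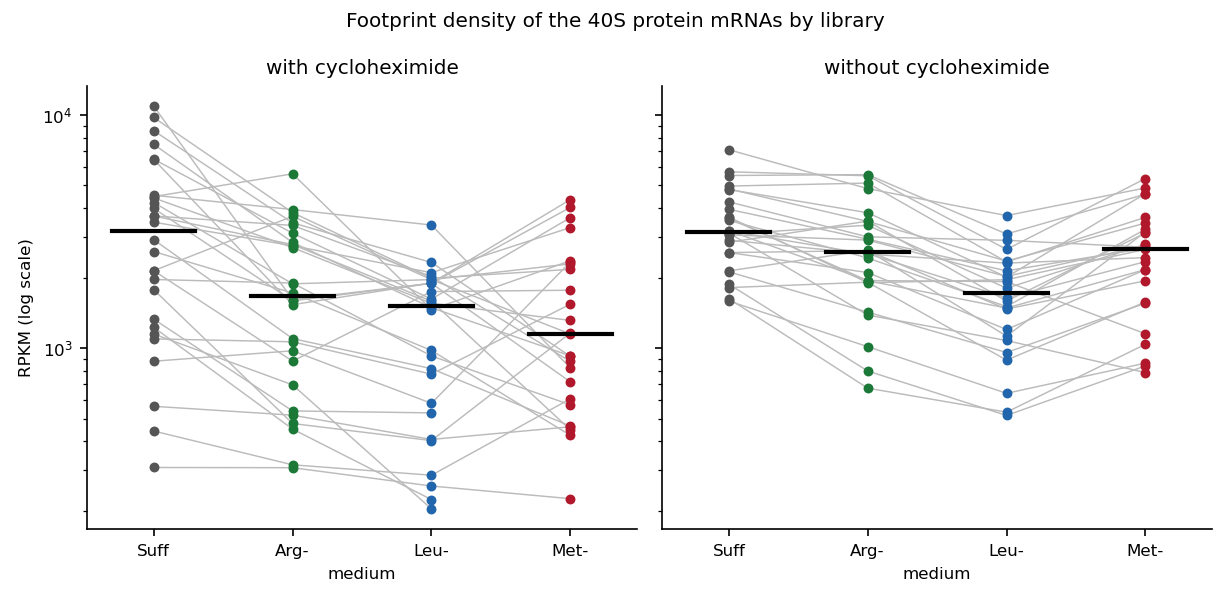
RPKM of each 40S protein mRNA (points, log axis) in the 4 media, with CHX on the left and without CHX on the right. Grey lines join 1 gene across libraries and black bars are medians over the listed members, which without CHX were 3155 in Suff, 2585 in Arg-, 1730 in Leu- and 2674 in Met-.

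In leucine starvation every listed member of the class was lower in both series, with each gene read from its transcript with the highest RPKM. The change of an mRNA is given as log2((RPKM + 1)/(RPKM in Suff + 1)), and called where it reached 2-fold. Without CHX, all 26 members listed were lower in Leu-, between -1.87 for RPS12 and -0.46 for RPS14. Their median was -0.98, which is 1.98-fold lower, while the median of 7565 mRNAs was 0.14. At least 2-fold lower were 13 of the 26 members, against 2.12% of all mRNAs, and 0 were at least 2-fold higher, against 6.89%. The SD of the 26 ratios was 0.33, and over all mRNAs listed in both libraries it was 0.58. With CHX, all 28 members were lower in Leu-, with a median of -1.27 (2.42-fold) beside 0.21 for 6232 mRNAs, and 18 of the 28 were at least 2-fold lower against 6.32% of all. None was at least 2-fold higher, where 26.3% of all mRNAs were. The members ran from -2.52 for RPS28 to -0.13 for RPS4X, and their SD of 0.76 was close to the 0.79 of all mRNAs listed in both libraries. The 26 members present in both series were lower in both, and 10 of them were at least 2-fold lower in both: RPS12, RPS15A, RPS18, RPS19, RPS20, RPS21, RPS24, RPS26, RPS27A and RPS28. The share of all mRNAs lower in both series was not computed, and the shares of 2.12% and 6.32% are for each series alone. The counting interval lay below 0 for each member with recovered reads of the same transcript in both libraries, 25 without CHX and 26 with it.

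Arginine starvation gave smaller and more uneven ratios. Without CHX the median of the 26 members was -0.38 (1.30-fold lower) beside -0.02 for 7466 mRNAs, and 19 members were below 0. Only RPSA, RPS12 and RPS26 were at least 2-fold lower, 3 of 26 (11.5%) against 6.05% of all mRNAs, and 0 were at least 2-fold higher against 8.33%. With CHX the median of 28 members was -0.71 beside -0.01 for 6224 mRNAs. There, 13 of the 28 were at least 2-fold lower against 18.4% of all, and 0 were at least 2-fold higher against 29.7%. The lowest was RPS28 at -2.76 and the highest RPS4X at 0.77. RPS12 and RPS26 were the members that were at least 2-fold lower in Arg- in both series, for which no share of all mRNAs was computed.

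Methionine starvation gave the widest spread among the members. Without CHX, 24 of 26 were below 0 with a median of -0.42 (1.34-fold lower), beside 0.31 for 7897 mRNAs. RPS26, FAU and RPS12 were at least 2-fold lower, 3 of 26 against 5.47% of all, and 0 were at least 2-fold higher against 20.2% of all. With CHX the Met- library was the shallowest, and 61.9% of 4805 mRNAs were counted at least 2-fold lower and 21% at least 2-fold higher, most of the former because they were not listed in Met-. Of the 28 members, 16 were at least 2-fold lower and 1 higher, and 3 of the 16 (RPS20, RPS26 and RPS27) were not listed there. Over the 25 members listed in both libraries, 13 were at least 2-fold lower against 9.79% of the 1890 mRNAs listed in both. Their median was -1.44, while that of the 1890 mRNAs was 0.89. A transcript with 64 reads in this library would have had an RPKM of 279 for RPS20 and 345 for RPS26, where Suff had 1230 and 1335.

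**Figure D2:**
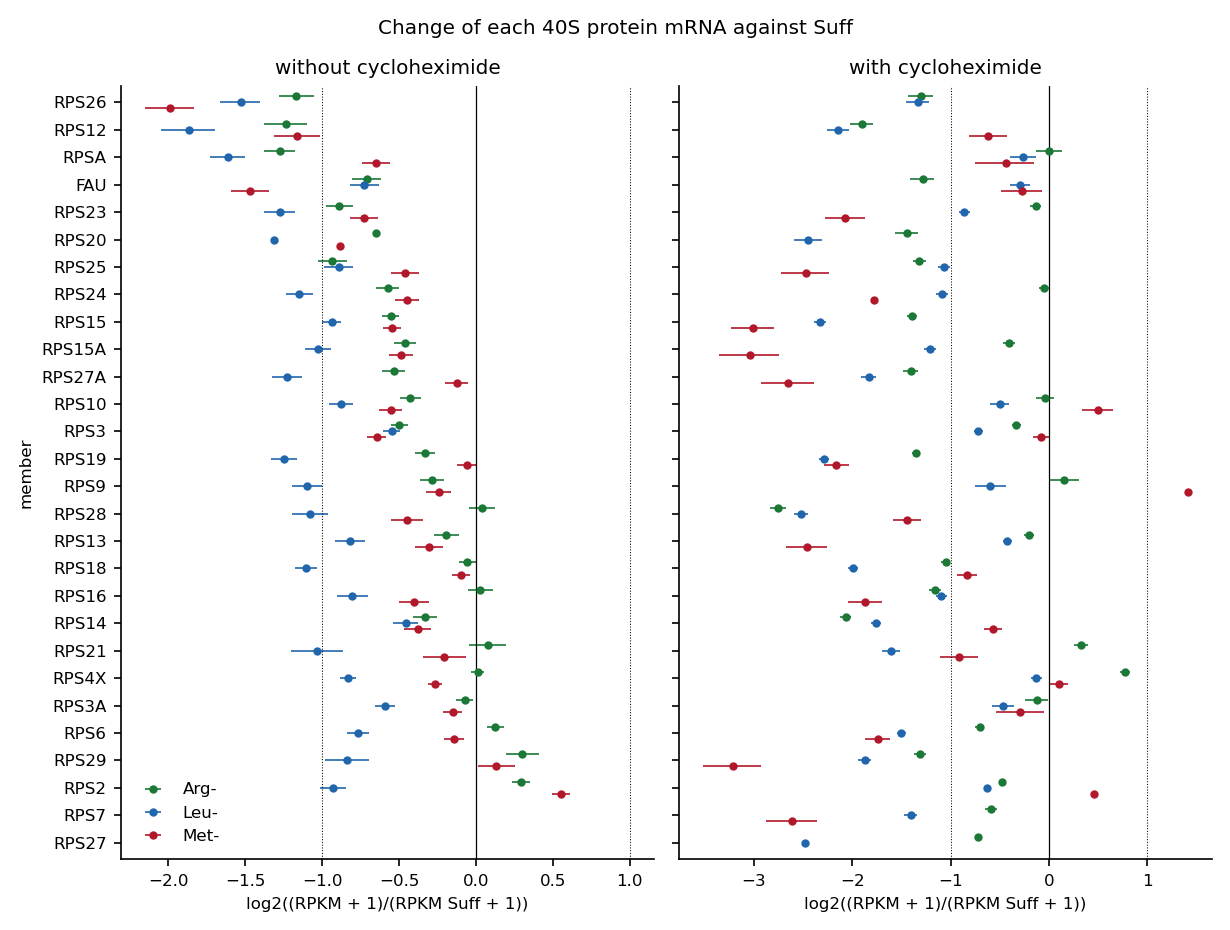
Log2 ratio of each 40S protein mRNA against Suff (points), without CHX on the left and with CHX on the right. Lines are 95% counting intervals, drawn where reads of the same transcript could be recovered in both libraries. Dotted lines mark 2-fold. Genes are ordered by the mean of their 3 ratios without CHX, from RPS26 at -1.56 to RPS2 at -0.03, and members that are not listed in a library have no point.

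The 3 starvations shared the Suff library of their series, so their ratios are given side by side and not correlated. Without CHX, Leu- held the lowest ratio for 22 of 26 members, Met- for 3 and Arg- for 1. All 3 ratios were below 0 for 19 of 26, against 21.9% of 7203 mRNAs, and RPS26 and RPS12 were at least 2-fold lower in all 3, against 0.472%. With CHX, Met- held the lowest ratio for 15 of 28 members, Leu- for 10 and Arg- for 3. All 3 ratios were below 0 for 23 of 28, against 37.2% of 4696 mRNAs, and 9 members were at least 2-fold lower in all 3, against 4.68%. Over the 25 members listed in all 4 libraries, 7 were at least 2-fold lower in all 3, against 2% of 1850 mRNAs.

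RPS26 sits at the mRNA exit, where it contacts the bases upstream of the start codon, and its gene is mutated in Diamond-Blackfan anaemia. Without CHX its RPKM was 3125 in Suff, 1390 in Arg-, 1081 in Leu- and 788 in Met-. The ratios were -1.17 (95% interval -1.28 to -1.06), -1.53 (-1.66 to -1.40) and -1.99 (-2.15 to -1.83), and RPS26 had the lowest mean of all members. With CHX its RPKM was 1335 in Suff, 539 in Arg- and 529 in Leu-, so that both starved libraries with a value were about equally low.

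RPSA, also known as the laminin receptor, lies on the solvent side next to the mRNA exit. Its RPKM without CHX was 1634 in Suff, 675 in Arg-, 533 in Leu- and 1041 in Met-. Arg- and Leu- were thus at least 2-fold lower (-1.27 and -1.62), and Met- was not (-0.65). With CHX, RPSA was read from another transcript and had the lowest RPKM of the members in Suff. The values were 308, 308, 257 and 227 in the same order, with ratios of -0.00, -0.26 and -0.44. In Arg- the interval with CHX was -0.14 to 0.13, so that the low value of the series without CHX was not seen there.

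RPS2 and RPS3 lie at the entry of the mRNA channel. RPS2 had an RPKM without CHX of 2149 in Suff, 2634 in Arg-, 1129 in Leu- and 3157 in Met-. It was lower in Leu- alone (-0.93), with ratios of 0.29 in Arg- and 0.55 in Met-, and it had the highest mean of the members. With CHX the highest RPS2 transcript was ENST00000343262 in Suff (442) and ENST00000529806 in Arg-, Leu- and Met- (317, 286 and 607). Within ENST00000343262 the ratios were -0.64, -1.56 and 0.08, and within ENST00000529806 they were -0.25, -0.40 and 0.69. RPS2 was thus at least 2-fold lower in Leu- of that series in one of its transcripts and not in the other. RPS3 had 4248, 3007, 2906 and 2715 without CHX, with ratios of -0.50, -0.55 and -0.65 that lay closer together than for any member but RPS14. With CHX RPS3 had 3476, 2755, 2111 and 3295, and Leu- was the lowest.

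RPS3A, on the platform beside the mRNA exit, was among the 4 members with the highest mean ratio without CHX. Its RPKM was 3066 in Suff, 2913 in Arg-, 2035 in Leu- and 2762 in Met-, so that Leu- stood below the rest. With CHX RPS3A was read from another transcript, ENST00000514682, and the 4 libraries held 564, 517, 407 and 461. ENST00000274065, the one listed without CHX, had 82.4, 144 and 101 in Suff, Arg- and Leu- with CHX. Its ratios were 0.80 in Arg- and 0.30 in Leu-, where ENST00000514682 gave -0.13 and -0.47. The direction of RPS3A in Leu- with CHX thus depended on the transcript. RPS28, a small protein at the mRNA exit, was the densest member in Suff with CHX. Its RPKM there was 10931 in Suff, 1618 in Arg-, 1901 in Leu- and 4021 in Met-. Without CHX it had 4966, 5115, 2348 and 3645, so that the ratio in Arg- was 0.04 in this series and -2.76 in the other.

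Among members at the decoding centre, RPS23 and RPS9 carry residues that set the accuracy of decoding. RPS23 had an RPKM of 3611 in Suff, 1950 in Arg-, 1489 in Leu- and 2177 in Met- without CHX. All 3 starved libraries were lower, with Leu- at -1.28. With CHX RPS23 had 3696, 3366, 2034 and 879, where Arg- stayed close to Suff (-0.13) and Met- was the lowest (-2.07). RPS9 had 2576, 2114, 1205 and 2176 without CHX, and again Leu- was the lowest (-1.10).

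With CHX, RPS9 was the 1 member that reached 2-fold higher, in Met-, and this ratio compared different transcripts. The highest RPS9 transcript was ENST00000448962 in Suff, Arg- and Leu- (RPKM 881, 976 and 581) and ENST00000402367 in Met- (2344). Within ENST00000448962 the Met- value was 1038, a ratio of 0.24. Within ENST00000402367, which had 761 in Suff, the ratio was 1.62. In Leu- the ratios of these transcripts were -0.60 and -1.19, and of the canonical ENST00000302907, which was not listed in Met-, -1.48. In Arg- the same transcripts, in this order, gave 0.15, -1.68 and -1.31. RPS9 in Met- and in Arg- thus depended on the transcript chosen, in Arg- also in direction, and RPS9 in Leu- was lower in each.

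RPS6 is the member phosphorylated by the S6 kinases downstream of mTORC1. Its RPKM without CHX was 3089 in Suff, 3373 in Arg-, 1812 in Leu- and 2795 in Met-. Leu- was the low library (-0.77, interval -0.84 to -0.70), and Arg- lay slightly above Suff (0.13, 0.07 to 0.18). With CHX it was 4415, 2705, 1559 and 1318, and all 3 starved libraries were lower (-0.71, -1.50 and -1.74).

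RPS10 and RPS20 are ubiquitinated by ZNF598 when ribosomes collide. RPS10 had an RPKM of 3947 in Suff, 2938 in Arg-, 2150 in Leu- and 2689 in Met- without CHX, with every starved library lower. With CHX it had 1098, 1067, 775 and 1546, and Met- was higher than Suff (0.49, interval 0.33 to 0.65). RPS20 had 1595, 1017, 642 and 864 without CHX, with ratios of -0.65, -1.31 and -0.88. With CHX it had 1230, 451 and 225 in Suff, Arg- and Leu- and was not listed in Met-. RPS20 was at least 2-fold lower in Leu- in both series and RPS10 in neither.

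RPS27A and FAU are made as fusions, RPS27A behind ubiquitin and FAU behind the ubiquitin-like protein FUBI. RPS27A had an RPKM without CHX of 3538 in Suff, 2441 in Arg-, 1511 in Leu- and 3242 in Met-. Leu- was the low library at -1.23, and Met- lay near Suff at -0.13. With CHX all 3 starved libraries were at least 2-fold lower, at 1101, 819 and 464 against 2924 in Suff.

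FAU differed from RPS27A in which library was lowest. Without CHX its RPKM was 3198 in Suff, 1954 in Arg-, 1933 in Leu- and 1155 in Met-. Met- was the lowest library at -1.47 (interval -1.59 to -1.34), with Arg- and Leu- at -0.71 and -0.73. With CHX FAU was read from the shorter transcript ENST00000529259, which had 2153, 882, 1752 and 1775. The longer transcript ENST00000529639, the one listed without CHX, had 1151, 770 and 541 in Suff, Arg- and Leu- with CHX, a ratio of -1.09 in Leu- where the shorter one gave -0.30.

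RPS12, a protein of the beak of the subunit, was the second lowest member without CHX. Its RPKM was 1885 in Suff, 800 in Arg-, 516 in Leu- and 841 in Met-, with ratios of -1.24 (interval -1.38 to -1.10), -1.87 (-2.05 to -1.70) and -1.16 (-1.31 to -1.02). With CHX, from the same transcript, it had 1784, 476, 402 and 1164. RPS12 was at least 2-fold lower in Arg- and Leu- of both series, while Met- reached 2-fold in the series without CHX alone.

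RPS29, a zinc-binding protein of the head whose gene is mutated in Diamond-Blackfan anaemia, had the second highest mean ratio without CHX. Its RPKM was 2849 in Suff, 3512 in Arg-, 1595 in Leu- and 3124 in Met-. Only Leu- was lower than Suff (-0.84). With CHX, from the same transcript, RPS29 had 8577, 3453, 2336 and 924, and its Met- ratio of -3.21 was the lowest of the 25 listed members.

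RPS19, the protein most often mutated in Diamond-Blackfan anaemia, had 4799 in Suff, 3816 in Arg-, 2021 in Leu- and 4608 in Met- without CHX. Leu- was 2.37-fold lower, and Met- was within counting error of Suff (-0.06, interval -0.12 to 0.01). With CHX the 4 libraries held 9772, 3821, 1999 and 2183. RPS18, of the head, had 5717, 5497, 2658 and 5344 without CHX, where again Leu- alone stood apart (-1.10). RPS16, whose tail reaches the tRNA in the peptidyl site, had 2574, 2625, 1474 and 1949, and was likewise low in Leu- (-0.80). With CHX RPS18 had 6472, 3119, 1626 and 3634, and RPS16 had 4220, 1891, 1972 and 1153. In that series RPS16 was lowest in Met- and RPS18 in Leu-.

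RPS15, needed for export of the pre-40S particle from the nucleus, was the densest member in Suff without CHX. It had 7107 in Suff, 4842 in Arg-, 3710 in Leu- and 4872 in Met-, and every starved library was lower. With CHX it was read from another transcript, ENST00000592623, and had 7496, 2847, 1494 and 929, a ratio of -3.01 in Met-. ENST00000593052, the one listed without CHX, had a ratio of 0.40 in Arg- with CHX, where ENST00000592623 gave -1.40. In Leu- these transcripts were both lower (-3.91 and -2.33), and ENST00000593052 was not listed in Met-. RPS14, of the platform, had 3186, 2536, 2321 and 2450 without CHX, the smallest difference from Suff of any member in Leu- (-0.46). With CHX RPS14, read from another transcript, had 6454, 1539, 1906 and 4343, and its ratios in Arg- and Leu- were -2.07 and -1.76.

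RPS24 is made as several splice forms. Without CHX its RPKM was 2128 in Suff, 1431 in Arg-, 960 in Leu- and 1562 in Met-, and Leu- was lowest at -1.15. With CHX the transcript with the highest RPKM was ENST00000440692 in Suff, Arg- and Leu- (1974, 1906 and 928) and ENST00000372360 in Met- (573). Within these transcripts the Met- ratios had opposite signs, -3.36 and 0.54, and the Arg- ratios were -0.05 and -1.99.

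RPS15A had 4824 in Suff, 3502 in Arg-, 2368 in Leu- and 3446 in Met- without CHX, and RPS21 had 1822, 1922, 891 and 1580. Both were lowest in Leu- at -1.03. With CHX RPS15A had 3694, 2787, 1594 and 448, and RPS21 had 4474, 5604, 1466 and 2374. Both were read there from other transcripts than without CHX. RPS21 in Arg- was higher than Suff in its highest transcript, ENST00000370562 (0.32), where RPS15A was lower (-0.41). The other RPS21 transcripts, ENST00000343986 and ENST00000450116, were lower in Arg- (-0.45 and -0.23), so that the direction depended on the transcript.

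RPS7 and RPS27 appeared in the CHX series alone and were not listed without CHX. RPS7 had 2601 in Suff, 1727 in Arg-, 980 in Leu- and 424 in Met-. RPS27, a zinc finger protein, had 1152, 698 and 205 in Suff, Arg- and Leu-. Its listed transcript is annotated as a retained intron in GENCODE release 44, and its reads could not be recovered. Both were more than 2-fold lower in Leu-.

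The remaining members were RPS4X, the X-linked copy of its protein, RPS13, which lies near the junction with the large subunit, and RPS25, used by some viral mRNAs to start translation. Without CHX, RPS4X had an RPKM of 5511 in Suff, 5559 in Arg-, 3093 in Leu- and 4582 in Met-. RPS13 had 2908, 2545, 1648 and 2354 in the same order, and RPS25 had 3655, 1913, 1969 and 2659. Their ratios in Leu- were close to each other, at -0.83, -0.82 and -0.89, and RPS25 alone of the 3 was about as low in Arg- (-0.93). With CHX, RPS4X had 2154, 3683, 1970 and 2303, and it was the member with the highest ratio in Arg-. RPS13 had 4535, 3937, 3379 and 824, and RPS25 had 3987, 1598, 1901 and 718. In Met- of that series RPS13 and RPS25 were near each other (-2.46 and -2.47) and RPS4X was near Suff (0.10).

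**Figure D3:**
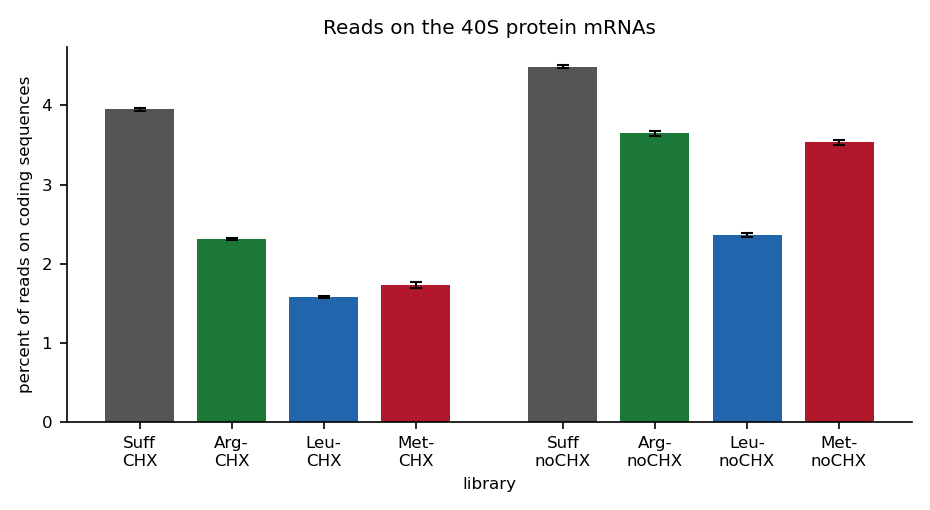
Percent of reads on coding sequences that fell on 40S protein mRNAs, with 95% Wilson intervals of counting error, over the 24 members with recovered reads in all 4 CHX libraries and the 25 with recovered reads in all 4 libraries without CHX. In both series Leu- is the lowest bar, at 1.57% with CHX and 2.36% without.

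Added up, the 40S protein mRNAs took a smaller part of all footprints in each starved library than in Suff. Without CHX, over 25 members, their share was 4.49% (interval 4.47 to 4.51) in Suff, 3.65% in Arg-, 2.36% (2.33 to 2.38) in Leu- and 3.53% in Met-. With CHX, over 24 members, it was 3.95% in Suff, 2.31% in Arg-, 1.57% in Leu- and 1.73% in Met-. Leu- was the lowest library of both series. The proteins of the large subunit took 8.01%, 7.01%, 4.54% and 5.31% of the reads without CHX, again least in Leu-.

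Leucine and methionine starvation were also compared directly. Without CHX, 23 of 26 members were higher in Met- than in Leu-, with a median of 0.56 beside 0.15 for 8133 mRNAs. At least 2-fold higher were RPS2 (1.48), RPS19 (1.19), RPS27A (1.10) and RPS18 (1.01), 4 of 26 against 10.2% of all mRNAs, and 0 were at least 2-fold lower against 5.07%. FAU (-0.74), RPS26 (-0.46) and RPS3 (-0.10) were lower in Met-. With CHX, 9 of 28 members were at least 2-fold lower in Met- against 68% of 5876 mRNAs, and 6 were at least 2-fold higher against 15.6%. These counts set an mRNA that was not listed to 0, and RPS20, RPS26 and RPS27, not listed in Met-, were among the 9. Over the 25 members listed in both of these libraries, 6 were at least 2-fold lower, against 6.86% of 2013 mRNAs. Their median was 0.02, beside 0.84 for the 2013 mRNAs.

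The series had no library in common, so the ratios of the members in one can be set against those in the other. Across the members listed in all 4 libraries concerned, Spearman's rho was 0.36 for Leu- (n = 26), 0.15 for Arg- (n = 26) and -0.11 for Met- (n = 24). Genes of one library share its depth and its Suff values, and these coefficients are descriptions of the scatter. Members lower in both series numbered 26 of 26 in Leu-, 18 of 26 in Arg- and 19 of 24 in Met-. The share of all mRNAs lower in both was not computed, so these counts have no background beside them. The order of the members thus differed between the series, while the direction in Leu- was common to both.

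**Figure D4:**
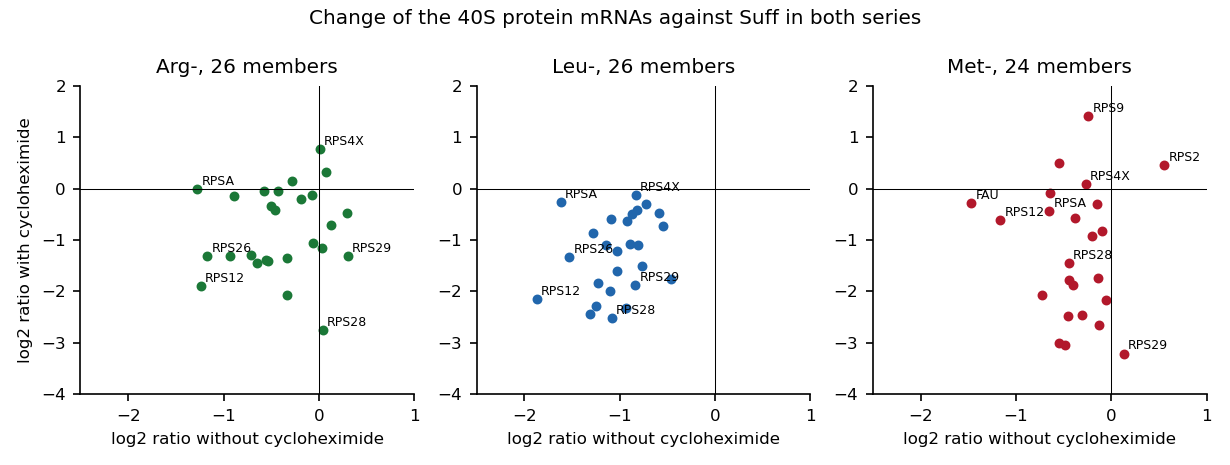
Log2 ratio against Suff with CHX (vertical) plotted against the ratio without CHX (horizontal) for each 40S protein mRNA, by starvation. In Leu- all 26 points lie below 0 on both axes, while RPS28 in Arg- (0.04 and -2.76) and RPS29 in Met- (0.13 and -3.21) are near 0 without CHX and far below it with CHX.

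The transcript behind a value was not always the same. Of the 26 members in both series, 13 had the same top transcript (highest RPKM) in every library that listed them. Another 11 had no top transcript common to both series. Of these 11, RPS3A, RPS9, RPS15 and FAU had their transcript of the series without CHX also listed with CHX, at a lower RPKM than the top one. Within the CHX series the top transcript changed between libraries for RPS2, RPS9 and RPS24, and within the series without CHX for 0 members. The 13 members with the same top transcript had a median ratio in Leu- of -1.08 without CHX and -1.50 with it, and 7 and 10 of them were at least 2-fold lower. In Arg- their medians were -0.19 and -1.31.

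Ribosomal protein genes have many processed copies. In GENCODE release 44, a median of 79.2% of the 28-base windows in the canonical coding sequence of a member also occurred in a transcript of another gene. This percentage ranged from 20.7% for RPS21 to 100% for RPS3A, RPS10, RPS26, RPS27 and RPS28, and was over 90% for 10 members. Only uniquely mapped reads were kept by the authors, so the level of a member also depends on the transcript set that they mapped to. Across members, rho between this percentage and the ratio was -0.16 in Arg-, -0.31 in Leu- and -0.10 in Met- without CHX. Its part in the ratios was not tested.

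The proteins themselves were short and rich in arginine. Over the 28 canonical proteins the median length was 145.5 residues, against 477 over 11063 mRNAs. The median share of arginine was 8.40% against 5.63%, that of leucine 8.30% against 9.76%, and that of methionine 2.38% against 2.13%. RPS26 held the least leucine (2.61%) and RPS13 the most (12.6%). Methionine ran from 0.70% in RPS23 to 5.52% in RPS15, and arginine from 3.79% in RPS12 to 15.9% in RPS28.

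The ratio of a member was set beside its content of the missing amino acid. Spearman's rho across members, a description with no test, was 0.15 for leucine in Leu-, 0.01 for methionine in Met- and 0.38 for arginine in Arg- without CHX, and -0.06, 0.01 and -0.05 with CHX. In the CHX series the longer members had the higher ratios (rho with length 0.44 in Arg-, 0.58 in Leu- and 0.54 in Met-), where the series without CHX gave 0.14, 0.29 and 0.27.

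The proteins of the large (60S) subunit were lower alongside those of the small subunit. Without CHX their median ratios over 44 measured genes of 47 were -0.22 in Arg-, -0.89 in Leu- and -0.64 in Met-. At least 2-fold lower were 1, 16 and 7 genes, against 6.05%, 2.12% and 5.47% of all mRNAs. The count in Arg- was thus below that share. None was at least 2-fold higher, against 8.33%, 6.89% and 20.2%. RPLP1, of the stalk, had an RPKM of 4270 in Suff, 1866 in Arg-, 2943 in Leu- and 1593 in Met-, and RPL34 had 3987, 2976, 1708 and 1566. At the other end, RPL3, beside the peptidyl transferase centre, had 2065, 2443, 1579 and 1884, and RPL13 had 3638, 4927, 2153 and 3914. With CHX, 15, 25 and 30 of 44 were at least 2-fold lower, against 18.4%, 6.32% and 61.9% of all mRNAs. In Met- 30 of 44 was thus near the share of all mRNAs, and over the genes listed in both libraries it was 20 of 34 against 9.79%. At least 2-fold higher with CHX were 1, 0 and 1 of 44, beside 29.7%, 26.3% and 21%.

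The small subunit of the mitochondrial ribosome, whose mRNAs are translated in the cytosol, was nearer to Suff than its cytosolic counterpart in Leu- without CHX. There the median of 29 measured genes of 30 was -0.26, with 0 at least 2-fold lower and 0 higher. Of all mRNAs 2.12% were at least 2-fold lower and 6.89% higher. In Arg- the median was -0.26 and in Met- -0.12, with 1 gene at least 2-fold lower in each, against 6.05% and 5.47% of all mRNAs. None was at least 2-fold higher in either, against 8.33% and 20.2%. The ratios of MRPS28 were -1.02 in Arg-, -0.82 in Leu- and -0.30 in Met-, and those of MRPS6 were -0.95, -0.24 and -0.91. MRPS31 (0.84, 0.50 and 0.69) and PTCD3 (0.77, 0.77 and 0.82) lay above 0 in each starvation. With CHX, 8 of 28, 5 of 27 and 10 of 26 genes were at least 2-fold lower, beside 18.4%, 6.32% and 61.9% of all mRNAs. Arg- and Leu- were thus above that share and Met- was below it. The 10 in Met- were not listed there, and 0 of the 16 genes listed in both libraries were at least 2-fold lower, against 9.79%. At least 2-fold higher were 7, 4 and 4, beside 29.7%, 26.3% and 21%.

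Factors that assemble the 40S subunit in the nucleolus and the cytoplasm were also near Suff in the series without CHX. Without CHX, the medians of 23 genes were -0.17 in Arg-, -0.07 in Leu- and 0.11 in Met-. In the same order, 0, 0 and 1 gene were at least 2-fold lower, against 6.05%, 2.12% and 5.47% of all mRNAs. At least 2-fold higher were 2, 2 and 5 of the 23, near the 8.33%, 6.89% and 20.2% of all mRNAs. RIOK3 (1.09, 1.31 and 1.10) and RIOK2 (0.49, 1.07 and 1.46), atypical kinases of the late pre-40S particle, were the highest. EMG1, a methyltransferase of the 18S rRNA, was the lowest at -0.84, -0.57 and -0.87, followed by AAMP (-0.50, -0.37 and -0.85). With CHX, 2 of 21, 0 of 20 and 6 of 18 were at least 2-fold lower, each below the share of all mRNAs (18.4%, 6.32% and 61.9%). At least 2-fold higher were 10, 5 and 6, beside 29.7%, 26.3% and 21%. Their medians with CHX were 0.61 in Arg-, 0.20 in Leu- and 0.11 in Met-. Over the genes listed in both libraries these medians were 0.24, 0.09 and 0.89.

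Translation factors and other mRNAs known to start with a TOP tract differed from the 40S proteins in Leu-. Without CHX their median over 17 genes was -0.09 in Leu-, 0.18 in Arg- and -0.39 in Met-. In Arg-, Leu- and Met- 2, 1 and 2 genes were at least 2-fold lower, against 6.05%, 2.12% and 5.47% of all mRNAs. At least 2-fold higher were 1, 0 and 2, against 8.33%, 6.89% and 20.2%. NPM1, a nucleolar chaperone, had an RPKM of 5869 in Suff, 2512 in Arg-, 3943 in Leu- and 1099 in Met-. TPT1 was lower in all 3 starvations (-1.09, -1.36 and -0.99). EEF2, which moves the ribosome along the mRNA, was higher in all 3 (0.99, 0.68 and 1.11), and EEF1G, a subunit of elongation factor 1, had 23.0, 65.2, 27.5 and 80.6. With CHX, 13 of 17, 9 of 17 and 6 of 16 genes were at least 2-fold higher, against 29.7%, 26.3% and 21% of all mRNAs. At least 2-fold lower were 1, 1 and 7, against 18.4%, 6.32% and 61.9%, so that Met- was below the share of all mRNAs.

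The S6 kinases, mTORC1 subunits and enzymes of 40S ubiquitination were mostly at low levels. Of 14 genes, 10 passed the minimum in Arg- and Leu- and 11 in Met- without CHX. At least 2-fold lower were 1, 0 and 0, against 6.05%, 2.12% and 5.47% of all mRNAs. At least 2-fold higher were 0, 0 and 3, against 8.33%, 6.89% and 20.2%. PELO, which rescues stalled ribosomes, had an RPKM of 51.4 in Suff, 63.8 in Arg-, 35.8 in Leu- and 149.8 in Met-. RPS6KA1, a ribosomal S6 kinase, had 25.2, 11.7, 20.3 and 28.2, and OTUD3, a deubiquitinase of RPS10 and RPS20, had 18.1, 13.0, 15.6 and 18.0. USP21, another deubiquitinase of these proteins, had 9.57, 13.9, 20.1 and 13.6. With CHX, 0 of 6, 0 of 8 and 4 of 4 genes were at least 2-fold lower, beside 18.4%, 6.32% and 61.9% of all mRNAs, and each of the 4 in Met- was not listed there. At least 2-fold higher were 3, 4 and 0, beside 29.7%, 26.3% and 21%.

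**Figure D5:**
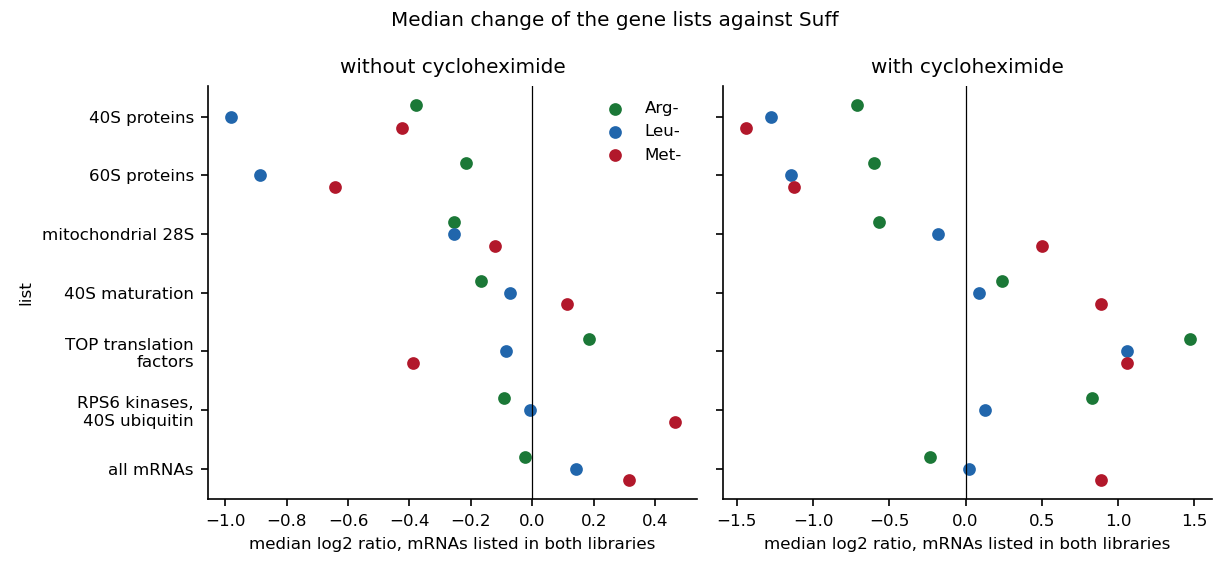
Median log2 ratio against Suff of the 40S proteins, the 5 gene lists and all mRNAs, over mRNAs listed in both libraries, without CHX on the left and with CHX on the right. In Leu- the 40S and 60S proteins lie near -1 in both panels while the medians of the other lists run from -0.26 to 1.06; the list of kinases and ubiquitin enzymes has no point for Met- with CHX, since none of its genes was listed in both.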

How the data were processed

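Footprint libraries of HEK293T cells in 4 media, with and without CHX pre-treatment, were analysed from the deposited tables, 1 library for each condition. Per the study's methods, the authors removed adaptors and reads outside a length range, trimmed bases of low quality, aligned to the human transcriptome (GRCh38) with Bowtie without mismatch and kept uniquely mapped reads. The submitters' processing notes also name cutadapt. The annotation release is not given in the sources used here. The names of the tables without CHX point to removal of duplicate reads, which those with CHX do not, and this could compress high levels. The deposited values are RPKM for each Ensembl transcript.

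Identifiers were matched to GENCODE release 44 (96.7% to 97.1% of transcripts). Whole reads were recovered from RPKM and coding length (with the stop codon in the series without CHX), with a tolerance of 0.01 read, for 97.1% to 97.4% of matched coding transcripts. The highest transcript of each gene was used, a gene not listed was set to 0 (in the members' medians too), a pseudocount of 1 was added, and background mRNAs had a mean RPKM of at least 10 in the pair. A call is a change of at least 2-fold. Intervals of ratios are Clopper-Pearson and those of shares Wilson, at 95%. PCR reads carry no molecular identifiers here, so intervals cover counting error only. The procedure was tested on simulated data. Tables were handled with pandas 2.3.3 and numpy 2.4.6 in Python 3.11.15, intervals were computed with scipy 1.17.1, and plots were drawn with matplotlib 3.10.9.

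The members and gene lists were chosen with earlier results of these data known. Values in every library are given for the 4 members with the lowest and the 4 with the highest mean ratio without CHX, those listed in fewer than 8 libraries or under different transcripts and those with a well-known role, and others were added after their values were seen. From each list the 2 lowest and 2 highest genes were named. Start windows come from RefSeq and matched 25 of 28 members; the entries of RPS2, RPS15A and RPS20 are not used here. Alternatives were a pseudocount of 0.1, no minimum, mRNAs listed in both libraries, summed transcripts, 1 transcript fixed per series, centring and leaving ribosomal proteins out of the total.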

Additional observations from a re-analysis of the deposited data

How the results depend on the processing

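In Leu- every alternative kept the members' median below 0 in both series, and a pseudocount of 0.1 or no minimum RPKM changed no median or count beyond its counting interval or 1.5 times. Centring on the median of all mRNAs moved the Leu- medians to -1.48 with CHX and -1.12 without it, and the Met- median without CHX to -0.74 with 5 members at least 2-fold lower. With CHX, centring turned Met- over, since its centre is set by mRNAs that were not listed: the median became 3.07, with 3 members at least 2-fold lower and 25 higher. Every listed member below 0 changed sign there, among them the 13 that had been at least 2-fold lower. Of these 13, the ratios became 3.09 for RPS6, 2.22 for RPS7, 2.38 for RPS13, 1.83 for RPS15 and 1.80 for RPS15A. RPS16 reached 2.97, RPS19 2.68, RPS23 2.77, RPS24 3.05, RPS25 2.37, RPS27A 2.19, RPS28 3.39 and RPS29 1.62. Between Met- and Leu-, centring gave 4.78 with CHX and 0.41 without. Over mRNAs listed in both libraries the Met- median with CHX was -1.44, and Met- against Leu- was 0.019. Summed transcripts gave -1.35 for Leu- with CHX and 0 members at least 2-fold higher in Met-. With 1 transcript fixed per series the Arg- median with CHX was -0.89. With ribosomal proteins left out of the total, the medians with CHX were -0.61 in Arg- and -0.99 in Met- (3 members at least 2-fold higher) and 0.53 for Met- against Leu-; without CHX they were -0.20 in Met- and 0.77 for Met- against Leu-. The other causes were not tested.

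Each condition had 1 library, so no value here has a replicate check. No paired analysis was possible because the result comes from no test and each condition has 1 library. The depth of Met- with CHX limits its low members, since fewer than 64 reads leave a gene out.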
